A study of Mus musculus with 11 samples.

Results

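T cells of the B10.BR mouse strain were cultured for 4 days with dendritic cells from organs of C57BL/6 mice, and their RNA was hybridised to mouse oligonucleotide arrays in a single colour. The comparison described here sets the 3 arrays whose titles carry the number 3 against the 3 arrays whose titles carry the number 2, one of each for dendritic cells from liver, MLN and PLN, so that 6 of the 11 arrays of the series form 3 pairs by organ. The labels abbreviate MLN and PLN, do not say what the number stands for, and name neither animals, pooling, T cell subset nor any removal of the dendritic cells before RNA was taken; the number is treated here as a culture run. Both sides of the comparison therefore share T cell strain, dendritic cell strain and length of culture, and differ in a number whose meaning is unknown. Spleen had no array numbered 2 and was left out. The p-values cover only how far these arrays scatter, and that scatter may be technical.

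B10.BR and C57BL/6 mice carry different alleles of the major histocompatibility complex, and T cells that recognise the foreign molecules on the dendritic cells become activated, enlarge and divide. Activated T cells secrete interleukins and other cytokines in short waves after contact with antigen, and the set of cytokines differs between type 1, type 2 and type 17 cells. They take up glucose and iron, build ribosomes, and lose transcripts of quiescence and lymph node homing such as Klf2 and Ccr7; when oxygen, nutrients or stimulation run short, hypoxia, amino acid stress and quiescence genes can rise instead.

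Levels are given as log2(intensity + 16), quantile normalized on that scale. Differences are number 3 minus number 2 on the same scale, averaged over the 3 pairs, with the standard error (SE) from limma. A gene was called at a Benjamini-Hochberg adjusted p under 0.05 over all 12393 genes. Genes counted as rising or falling in a list are those called higher or lower. The scale understates the change of dim genes, and each gene was read by 1 probe set, that with the highest mean. All arrays had a trimmed mean intensity of 500.2, array to array correlations were 0.966 to 0.985, and no arrays held identical values. T cell genes were abundant on all 6 arrays: Cd3d lay between 12.68 and 12.90 and Cd8a between 11.48 and 11.86.

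MLN and PLN arrays numbered 2 stood apart from the other 4 in Hspa1a, Hspa1b and Trib3. Hspa1a, which encodes an inducible cytosolic heat shock protein of the Hsp70 family, had levels of 6.85, 9.92 and 10.23 in the liver, MLN and PLN arrays numbered 2, against 6.02, 6.30 and 6.57 in those numbered 3. Its near-identical neighbour Hspa1b, from which its signal may not be separable, had 7.86, 10.65 and 10.85 against 7.71, 7.47 and 7.77. Both genes were thus far higher in 2 arrays and close to the rest in the liver array numbered 2, and neither was called (limma adjusted p = 0.0579 and 0.107). Because of this, values without these 2 arrays are given beside the results below. Without them the number 2 side rests on the liver array alone, in a fit of the other 9 arrays, and no gene was called by limma (1578 at an unadjusted p under 0.05; smallest adjusted p 0.0732).

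Between the numbers, 274 genes were higher in the arrays numbered 3, which is 2.21% of those tested, and 258 were lower, which is 2.08%. Differences of the higher genes ran from 0.26 to 2.69 with a median of 0.52, and 27 reached 2-fold. Those of the lower genes ran from -0.25 to -1.96 with a median of -0.53, and 25 reached 2-fold. All 532 called genes moved the same way in all 3 pairs, as did 20.7% of all genes upward and 21.1% downward. Groups without overlap, given below for single genes, also occurred in genes that were not called, such as Asns, Hspa1a and Xist. The count was 2 without the MLN pair and 30 without the PLN pair, against 674 without the liver pair, and 0 when no trend of variance with level was modelled (limma, 2065 at an unadjusted p under 0.05). The plot of all genes by level shows the called genes almost wholly among brighter genes; 519 of them were in the upper 60% by mean level.

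**Figure D1:**
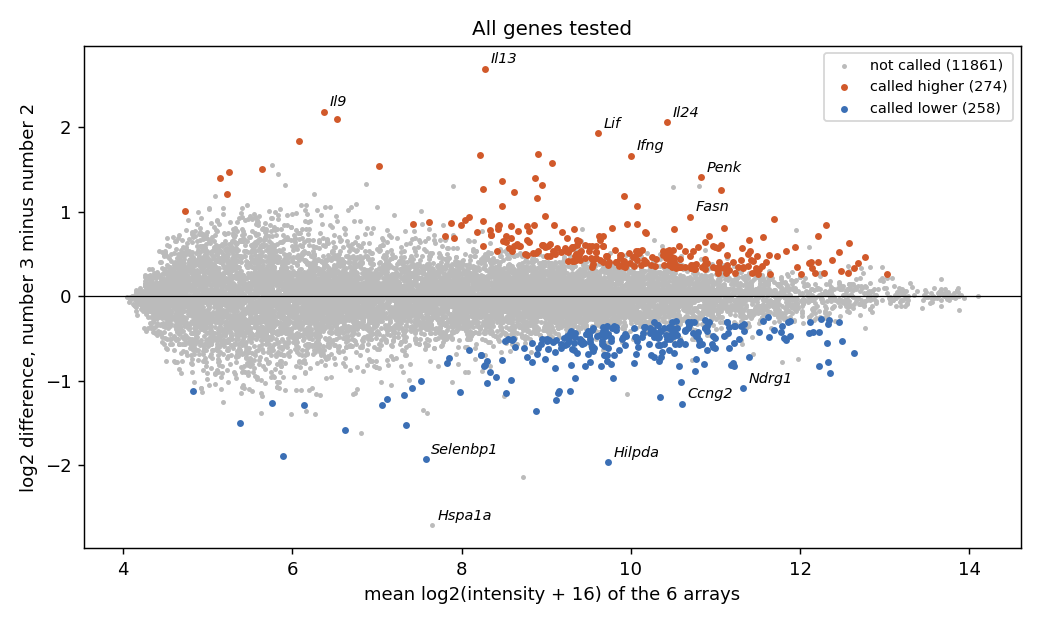
Log2 difference between the arrays numbered 3 and 2 (vertical axis) against the mean level of the 6 arrays (horizontal axis, log2(intensity + 16)) for all 12393 genes; orange points are the 274 called higher, blue points the 258 called lower, and grey points are not called. Il13 at 2.69 and Hilpda at -1.96 mark the largest called differences, and Hspa1a at -2.71 was not called.

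Cytokine genes made up much of the top of the list. Of the 15 called genes in the upper 60% by level with the largest differences upward, 9 encode secreted interleukins or cytokines: Il13, Il24, Lif, Csf2, Il2, Ifng, Il3, Il21 and Il10. Il13, a type 2 cytokine, had levels of 5.48, 7.70 and 7.61 in the liver, MLN and PLN arrays numbered 2 and 8.87, 10.04 and 9.96 in those numbered 3. Every array numbered 3 lay above every array numbered 2, and the liver array numbered 2 was the lowest. The difference was 2.69 (SE 0.23, limma adjusted p = 0.0142), and 3.65 without the MLN and PLN arrays numbered 2 (adjusted p = 0.0732).

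Il2, the growth factor that activated T cells make for themselves and for regulatory T cells, stood at 6.97, 7.91 and 7.27 in number 2 and at 8.58, 9.58 and 8.99 in number 3. The groups did not overlap, and within each number the liver array was lowest and the MLN array highest. Il2 rose by 1.67 (SE 0.11, limma adjusted p = 0.0142), or 3.17-fold; in the arrays numbered 4 its levels were 6.80, 7.07 and 6.39 in the same order of organs, and 9.55 in spleen number 3.

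Ifng, the hallmark type 1 cytokine, was nearly level across organs in number 2, at 9.17, 9.24 and 9.10, and stood at 10.24, 11.14 and 11.10 in number 3. The groups did not overlap and the liver array numbered 3 was the lowest of its group. Ifng rose by 1.66 (SE 0.18, limma adjusted p = 0.0174). Unlike those of Il2, its levels in the arrays numbered 4 were near those of number 3, at 10.71, 11.39 and 10.55. Csf2, which encodes the growth factor GM-CSF, had 7.94, 8.18 and 8.05 in number 2 and 9.24, 10.21 and 9.75 in number 3, a rise of 1.68 (SE 0.15, adjusted p = 0.0142). Il3, a growth factor of blood cell precursors and basophils, had 8.03, 8.11 and 8.70 against 9.38, 10.02 and 10.14 and rose by 1.57 (SE 0.13, adjusted p = 0.0142). Both genes, like Ifng, were higher in every array numbered 3 than in any numbered 2.

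The cytokine genes Il24, Il17a and Il10 differed between organs as well as between numbers. Il24, a cytokine of the IL-10 family, was spread widely in number 2, at 7.79, 9.76 and 10.65, and narrowly in number 3, at 11.01, 11.54 and 11.83, so that its difference of 2.06 (SE 0.35, limma adjusted p = 0.0389) came with pair values of 3.22 in liver and 1.18 in PLN. Il17a, the defining cytokine of type 17 cells, had 8.67, 9.22 and 10.07 against 10.19, 10.13 and 11.23 and rose by 1.19 (SE 0.12, adjusted p = 0.0157). Il10, an inhibitory cytokine, had 7.82, 8.03 and 8.67 against 9.46, 9.45 and 9.80 and rose by 1.40 (SE 0.12, adjusted p = 0.0142). PLN arrays held the highest level of all 3 genes in both numbers, and no array numbered 2 reached the array numbered 3 of its own organ.

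Among other cytokine genes, Lif, of the IL-6 family, rose by 1.93, Il21, a B cell helper cytokine, by 1.54 and Il6 by 0.89. Il9, dim in number 2 at 4.69 to 5.77 and at 7.16 to 8.06 in number 3, rose by 2.18. Il4, the cytokine that drives type 2 cells, had 5.13, 6.89 and 6.45 against 6.37, 8.10 and 7.20, with a difference of 1.06 that was not called (limma adjusted p = 0.0529), and its groups overlapped. Il5, another type 2 cytokine, was not called either, at 1.33 (adjusted p = 0.0685). Of the regulators of these subsets, Tbx21, the type 1 factor, differed by -0.19 (adjusted p = 0.598), Gata3, the type 2 factor, by 0.39 (0.258) and Rora, a type 17 factor, by -0.56 (0.117), and none of them was called, whereas Ahr, which also acts in type 17 cells, rose by 0.83 (0.0222).

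**Figure D2:**
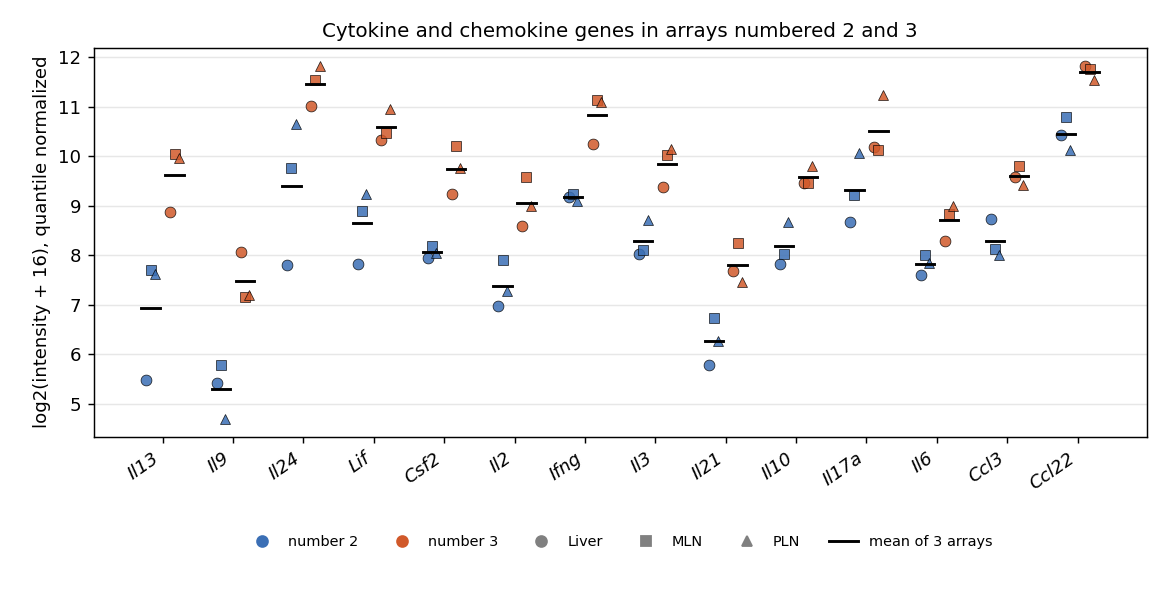
Levels (log2(intensity + 16), vertical axis) of 14 cytokine and chemokine genes in the 3 arrays numbered 2 (blue) and the 3 numbered 3 (orange), with symbols for the organ and a bar at the mean of 3 arrays. The 14 were chosen among the genes called higher, and no orange point lies at or below a blue point of the same gene. Groups without overlap occurred in 504 of all 532 called genes. Ccl5 and Il4, whose groups overlapped, are not shown. Ifng and Csf2 sit tightly in number 2, whereas Il24 and Il13 spread between organs.

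By list, 7 of 18 measured type 2 genes were called higher and none lower, beside 2.21% and 2.08% of all genes. The median difference of the list was 0.95 against -0.002 over all genes. Those 7 were Il13, Il9, Il24, Csf2, Il3, Il10 and Il6, of which Csf2, Il3, Il10 and Il6 are made by other T cell subsets too. Of 19 type 1 genes 6 rose (median 0.35): Ifng, Il2, Havcr2, which encodes the inhibitory receptor Tim-3, and the chemokine genes Ccl3, Ccl4 and Ccl5. Of 6 type 17 genes 3 rose (median 0.89): Il17a, Il21 and Ahr, the aryl hydrocarbon receptor. Without the MLN and PLN arrays numbered 2 these medians were 0.83, 0.43 and 0.91. Differences lay below 0 in 2 of the 18 type 2, 6 of the 19 type 1 and 2 of the 6 type 17 genes. Of the type 1 genes 9 were higher and 3 lower in all 3 pairs.

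Some chemokine genes rose with the cytokines. Ccl3, an inflammatory chemokine, had 8.72, 8.13 and 8.01 in number 2 and 9.57, 9.79 and 9.42 in number 3, and rose by 1.31 (SE 0.16, limma adjusted p = 0.0227). Ccl4, a related chemokine, rose by 0.95 (adjusted p = 0.0311) with no overlap of the groups. Ccl5, which T cells release late after activation, had 11.15, 10.47 and 10.46 against 12.05, 11.11 and 11.37; it was higher in number 3 in each pair and rose by 0.81 (SE 0.07, adjusted p = 0.0142), but the liver array numbered 2 lay above the MLN array numbered 3. In all, 4 of 14 effector chemokine genes were called higher, the fourth being Ccl22, and none was called lower, beside 2.21% and 2.08% of all genes. Of the 14, 9 had a difference above 0 and 5 below. The list median was 0.44, and 0.56 without the MLN and PLN arrays numbered 2.

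Ccl22, a ligand of Ccr4 made chiefly by dendritic cells and also by T cells, belonged to a wider group. It had 10.43, 10.78 and 10.13 in number 2 and 11.81, 11.76 and 11.54 in number 3, and rose by 1.26 (SE 0.09, limma adjusted p = 0.0142). Fscn1, an actin-bundling protein of mature dendritic cells, had 11.11, 11.50 and 11.08 against 12.18, 12.18 and 12.07 and rose by 0.91 (SE 0.08, adjusted p = 0.0151). Neither gene's groups overlapped, and for both the 3 arrays numbered 3 lay within a narrow range. The costimulatory genes Cd86 and Cd80 rose by 0.83 and 0.58, the maturation marker Cd83 by 0.80 and the endocytic receptor gene Ly75 by 0.59. Another probe set of Cd80 went the other way, at -0.41. Cd40, the receptor through which T cells license dendritic cells, rose by 0.84 (adjusted p = 0.0261).

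Apart from Cd40, which is not on that list, these were the 6 genes called of 18 dendritic cell and class II markers, none of which fell, and the summed intensity of the list was 10508 to 12057 in number 2 and 16929 to 18466 in number 3 (median difference 0.55). Activated T cells can also express Cd80, Cd86 and Cd83. Of the 18 genes, 16 had a difference above 0 and 2 below, and 10 were higher in all 3 pairs. Shares over all genes were 2.21% called higher and 20.7% higher in all 3 pairs. The 12 not called include Cd74, the class II invariant chain, at 10.90, 10.43 and 10.59 in number 2 against 10.78, 10.83 and 11.01. H2-Aa differed by 0.35 (limma adjusted p = 0.287) and Itgax, which encodes the integrin CD11c, by -0.05 (0.923), and neither was called. In bulk RNA, fewer cells of a type and less RNA per cell cannot be told apart. The part of dendritic cell RNA in the other results was not tested. Without the MLN and PLN arrays numbered 2 the list median was 0.50.

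Among markers of other cell types few genes were called. No gene was called among 11 B cell, 20 macrophage, 12 neutrophil, 10 hepatocyte or 11 endothelial markers. Their medians were -0.17, 0.02, 0.03, -0.01 and -0.05. In that order 6, 7, 1, 0 and 4 genes were in the upper 60% by level, which held 519 of the 532 calls. Over all genes 2.21% were called higher and 2.08% lower, so lists this short and dim leave little room for calls. Of the B cell genes 10 had a difference below 0 and 1 above, with 5 lower in all 3 pairs and none higher. Summed B cell intensity, mostly from Ighm, was 11265 to 11679 in number 2 and 9964 to 11593 in number 3. Kit, a stem cell factor receptor of the mast cell list, fell by 0.68, and Lum, an extracellular matrix proteoglycan of the stromal list, rose by 1.36. The stromal list had a median of -0.24. Its summed intensities were 7980 to 8425 in number 2 and 9549 to 9806 in number 3, which did not overlap. Most of that sum came from Thy1, which is also a T cell marker, at 12.83, 12.89 and 12.87 against 13.12, 13.02 and 13.08. The natural killer cell list had a median of 0.23. Of 9 erythroid markers only Tfrc, described below, was called, with a list median of 0.45 and 5 genes higher in all 3 pairs. Summed erythroid intensities, mostly from Tfrc, were 3896 to 4713 against 6582 to 6909. The defining erythroid genes Hba-a1, of haemoglobin, and Alas2, of haem synthesis, were dim, at 4.48 to 6.28 and 4.29 to 5.64 over the 6 arrays. Neither was called (limma adjusted p = 0.132 and 0.167). The part of these cell types in the other results was not tested. Of 14 T cell markers, Cd4 rose by 0.39 (limma adjusted p = 0.0434) and the costimulatory receptor gene Cd28 fell by 0.38 (adjusted p = 0.0309), while Cd8a differed by -0.07 and Cd3e by -0.04. The summed intensity of the T cell list overlapped, at 38268 to 44263 in number 2 and 38939 to 41102 in number 3.

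Outside the lists, Penk had the smallest p of all genes named. It encodes the precursor of the enkephalin opioid peptides, which activated T cells also make. Its levels were 9.58, 10.52 and 10.27 in number 2 and 11.01, 11.98 and 11.60 in number 3. The step was nearly the same in each organ, and Penk rose by 1.41 (SE 0.06, limma adjusted p = 0.00361); without the MLN and PLN arrays numbered 2 it was 1.44 (adjusted p = 0.14). Akr1c18, a steroid dehydrogenase that inactivates progesterone, rose by 1.23 and Tbc1d8 by 1.27.

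Genes of biosynthesis rose by smaller amounts. Of 23 ribosome biogenesis and Myc target genes 8 rose and none fell, beside 2.21% of all genes called higher. In all 3 pairs 20 of the 23 were higher, beside 20.7% of all genes, and the median was 0.32. Rrs1, a ribosome assembly factor, had 9.74, 9.75 and 9.91 in number 2 and 10.51, 10.58 and 10.56 in number 3, with no overlap, and rose by 0.75 (SE 0.06, limma adjusted p = 0.0142). The nucleolar genes Nolc1, Nop2, Nop16 and Nop56 rose by 0.43 to 0.58, Srm, of spermidine synthesis, by 0.49, Eif4e, the cap-binding factor, by 0.40, and Odc1, of polyamine synthesis, by 0.33. Myc itself was not called, at 0.21 (limma adjusted p = 0.195), and neither was any of 18 cytosolic ribosomal protein genes (median -0.04). Of these 18, 10 were lower and 1 higher in all 3 pairs, beside 21.1% and 20.7% of all genes. Without the MLN and PLN arrays numbered 2 the median of the biogenesis list was 0.46.

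Chaperones of the endoplasmic reticulum, where secreted proteins fold, rose in 7 of 20 cases and none fell, beside 2.21% of all genes called higher. The list median was 0.32, and 0.30 without the MLN and PLN arrays numbered 2. Hspa5, the main chaperone of that compartment, had 12.38, 12.65 and 12.60 against 12.83, 13.16 and 13.02 and rose by 0.46 (SE 0.05, limma adjusted p = 0.0166). Manf, a small secreted stress protein, had 11.56, 11.59 and 11.52 against 12.02, 12.15 and 12.12 and rose by 0.54 (SE 0.05, adjusted p = 0.0151). In both genes every array numbered 3 lay above every array numbered 2. Creld2, Dnajb11, Pdia3, Pdia6 and Sdf2l1 rose by 0.27 to 0.55.

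Tfrc, the transferrin receptor that brings iron into dividing cells, had 11.76, 12.03 and 11.79 in number 2 and 12.58, 12.60 and 12.53 in number 3. The groups did not overlap, and Tfrc rose by 0.71 (SE 0.06, limma adjusted p = 0.0142), its 2 other probe sets showing 0.86 and 0.87. Fasn, the fatty acid synthase, had 10.08, 10.43 and 10.18 against 11.15, 11.24 and 11.13 and rose by 0.94 (SE 0.07, adjusted p = 0.0142). Of the rest of lipid synthesis, Elovl1, a fatty acid elongase, and Idi1, of the isoprenoid pathway, rose by 0.37 and 0.67; no others were called among 13 fatty acid genes (median 0.03) and 17 cholesterol genes (median 0.20). Txnrd1, a thioredoxin reductase, rose by 0.61.

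Of the IL-2 and cytokine feedback genes, 3 of 16 rose and none fell, beside 2.21% of all genes called higher (list median 0.28). Those that rose were Il2ra, the high-affinity IL-2 receptor chain, by 0.43, Socs1, an inhibitor of cytokine signalling, by 0.81, and Lif. In the S phase list Ccne1, Ccne2, Cdc6, Fen1 and Rrm2, which act in the start and course of DNA replication, rose by 0.43 to 0.57, whereas the licensing factor gene Cdt1 fell by 0.33, and 22 of 28 were not called (median 0.08). No gene of 29 in the mitosis list was called (median 0.08). Higher in all 3 pairs were 15 of the 28 S phase and 11 of the 29 mitosis genes, with 4 of each lower. Cytotoxic genes split, with the granzyme gene Gzmd (0.53) and the granzyme inhibitor gene Serpinb9 (0.64) rising and Gzmk (-0.74) and the cathepsin gene Ctsw (-0.46) falling among 19 (median 0.05). Gzmb, the main granzyme of killer T cells, had 13.76, 13.84 and 13.78 against 13.73, 13.90 and 13.77, and its groups overlapped (limma adjusted p = 0.938).

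Inhibitory receptor genes also split. Cd200 and its receptor gene Cd200r1 rose by 0.86 and 0.71 and Havcr2 by 0.49. Ctla4, the inhibitory counterpart of Cd28, had 12.62, 12.86 and 12.79 in number 2 and 12.22, 12.18 and 12.27 in number 3, and fell by 0.53 (SE 0.06, limma adjusted p = 0.0222). Lag3, a receptor for class II molecules, fell by 0.58. The 5 others of the 10 genes were not called. H2-K1, a class I heavy chain in a locus where the strains differ, rose by 0.84 with its other probe sets between 0.33 and 0.65; which strain's allele the probes read was not tested.

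**Figure D3:**
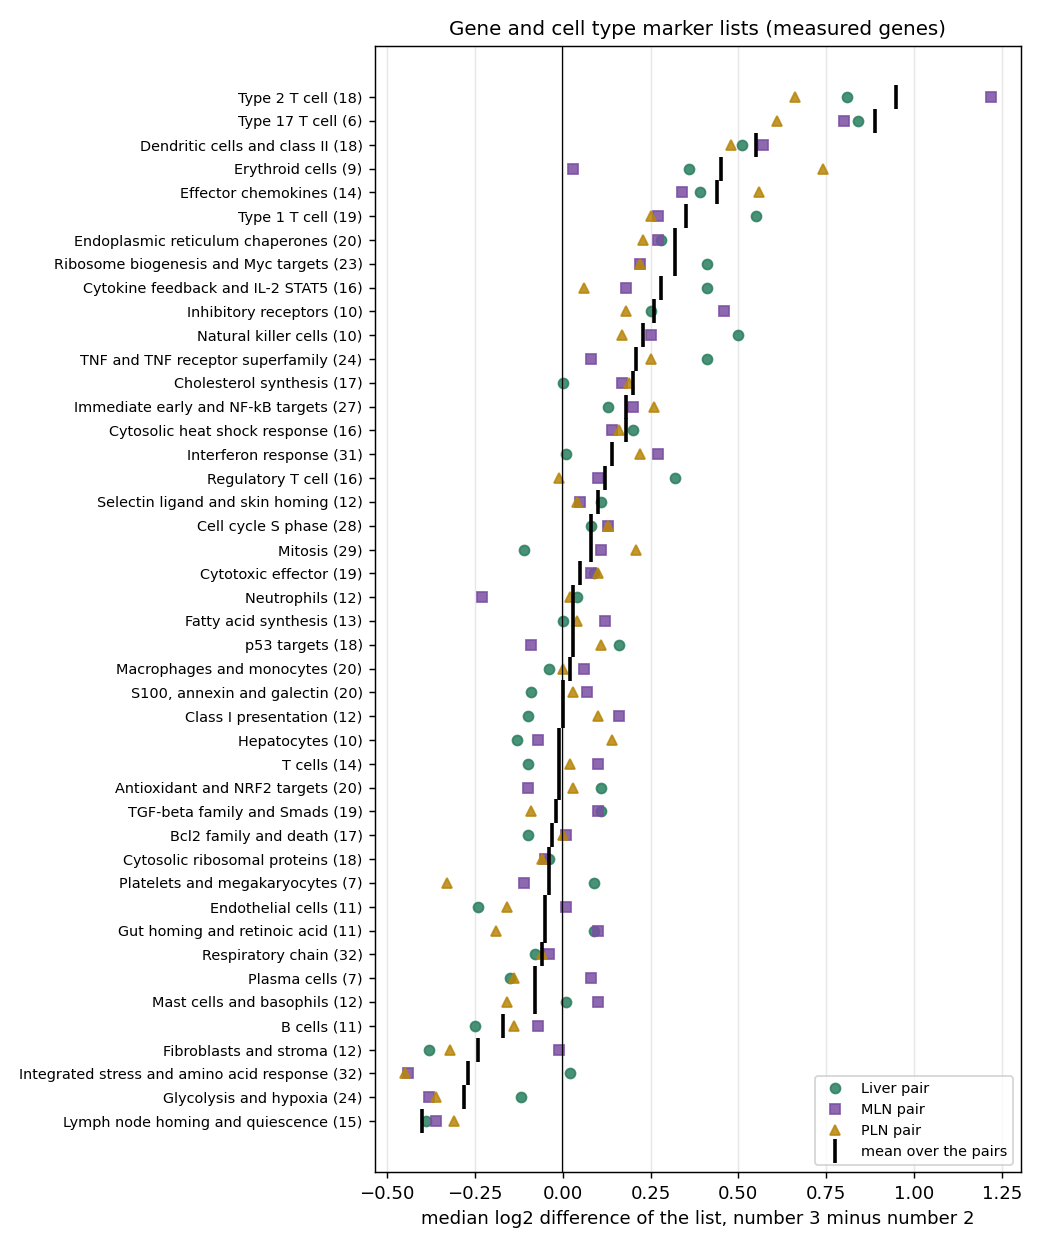
Median log2 difference, number 3 minus number 2, of each gene or marker list with at least 6 measured genes (count in brackets), with a symbol for each organ pair and a black bar for the median of the differences averaged over the pairs. The type 2 list lies farthest right, at 0.95, and the lymph node homing and quiescence list farthest left, at -0.40; the integrated stress list has its liver pair at 0.02 and the other pairs at -0.44 and -0.45.

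Genes of hypoxia were among those on the lower side. Hilpda, a lipid droplet protein induced by low oxygen, had 9.42, 11.25 and 11.47 in number 2 and 8.32, 9.16 and 8.79 in number 3. The groups did not overlap, but the liver array numbered 2 was close to the MLN array numbered 3. Hilpda fell by 1.96 (SE 0.27, limma adjusted p = 0.0272), and the difference was -1.27 without the MLN and PLN arrays numbered 2 (adjusted p = 0.083). Of 24 glycolysis and hypoxia genes, a list that does not include Hilpda, 8 fell and none rose, beside 2.08% of all genes called lower. Lower in all 3 pairs were 16 of the 24, beside 21.1% of all genes. The list median was -0.28 (-0.15 without those arrays), and the pair medians were -0.12 in liver, -0.38 in MLN and -0.36 in PLN.

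The hypoxia-inducible factors bind the core RCGTG, so 3 promoters of fallen genes are shown with each match to ACGTG or GCGTG, on either strand, in capitals. Bnip3, Egln1 and Pdk1 were taken as examples that hold the core, from RefSeq's table for GRCm38.p6. Aldoc and Egln3 also hold it, as does Selenbp1, a fallen gene that is not on the glycolysis and hypoxia list. The promoters of Vegfa and of Hilpda, which is not on that list either, have no match in this window, although both genes fell. Each is the 250 bases before the annotated start, read 5′ to 3′ on the gene's strand: for Bnip3 chr7:138909507-138909756, minus strand; for Egln1 chr8:124949255-124949504, minus strand; and for Pdk1 chr2:71872974-71873223, plus strand.
Bnip3: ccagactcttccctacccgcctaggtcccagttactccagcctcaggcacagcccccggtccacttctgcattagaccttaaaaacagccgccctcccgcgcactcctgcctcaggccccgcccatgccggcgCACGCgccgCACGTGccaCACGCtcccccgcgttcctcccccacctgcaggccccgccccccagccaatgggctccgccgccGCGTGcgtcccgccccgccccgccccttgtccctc
Egln1: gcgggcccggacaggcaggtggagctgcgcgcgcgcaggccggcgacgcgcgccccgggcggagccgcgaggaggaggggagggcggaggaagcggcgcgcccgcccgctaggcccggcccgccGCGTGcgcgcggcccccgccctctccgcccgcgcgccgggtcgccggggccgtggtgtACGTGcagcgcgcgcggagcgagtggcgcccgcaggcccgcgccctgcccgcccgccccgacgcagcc
Pdk1: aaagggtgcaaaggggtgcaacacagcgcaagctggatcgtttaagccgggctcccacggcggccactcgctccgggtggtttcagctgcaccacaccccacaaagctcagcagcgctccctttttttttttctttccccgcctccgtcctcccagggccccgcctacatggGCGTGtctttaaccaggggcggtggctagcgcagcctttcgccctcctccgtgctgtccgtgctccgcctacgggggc
Counting the overlapping matches of its CACGTG on both strands, Bnip3 holds 5, Egln1 2 and Pdk1 1, and the nearest to the start begin 35, 68 and 78 bases before it. At least 1 match was present in 17 of the 22 promoters of the list, or 77.3%. Among the 9887 measured genes with a promoter the share was 51.4%, so the core is common. Genes that were not called held it as well, such as Ldha with 5 matches, whereas Pkm and Tpi1, also not called, had none. A match is a description and not a binding site.

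Egln1, the oxygen-sensing prolyl hydroxylase that marks hypoxia-inducible factors for degradation, had 10.60, 11.31 and 11.39 in number 2 and 9.87, 10.20 and 10.17 in number 3, and fell by 1.02 (SE 0.10, limma adjusted p = 0.0151). Pdk1, a kinase that keeps pyruvate out of the mitochondria, had 11.53, 11.63 and 11.73 against 10.81, 10.75 and 10.86 and fell by 0.82 (SE 0.06, adjusted p = 0.0142). Bnip3, a mitophagy receptor, had 12.27, 12.70 and 12.80 against 11.89, 12.08 and 12.16 and fell by 0.55 (SE 0.07, adjusted p = 0.0227). In all 3 genes no array numbered 3 reached an array numbered 2.

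Ndrg1, a stress-induced differentiation gene, had 11.21, 12.07 and 12.32 against 10.54, 10.82 and 10.97 and fell by 1.09 (SE 0.13, limma adjusted p = 0.0222), and its 4 other probe sets showed -1.16 to -1.32. Aldoc, an aldolase of glycolysis, fell by 0.97, Vegfa, the angiogenic growth factor, by 0.75, Slc2a3, a glucose transporter, by 0.67 and Egln3, a second prolyl hydroxylase, by 0.51. The groups of Slc2a3 and Egln3 overlapped: the liver array numbered 2 lay below the MLN array numbered 3 for Slc2a3, and below the MLN and PLN arrays numbered 3 for Egln3. Core enzymes of glycolysis were not called: Ldha, of lactate production, differed by 0.09 (adjusted p = 0.327), Pgk1 by -0.01 (0.965) and Hk2, the hexokinase of activated T cells, by 0.19 (0.229). Pygl, which releases glucose from glycogen, fell by 1.14.

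Quiescence and lymph node homing genes fell as well, 6 of 15, with none rising, beside 2.08% of all genes called lower. In all 3 pairs 11 of the 15 were lower, beside 21.1% of all genes. The list median was -0.40, and the pair medians were -0.39, -0.36 and -0.31 in liver, MLN and PLN. Klf2, a factor that keeps T cells quiescent and in circulation, had 9.65, 10.02 and 9.94 in number 2 and 8.99, 9.07 and 9.07 in number 3, and fell by 0.83 (SE 0.08, limma adjusted p = 0.0159). Foxo1, which drives Klf2 and Il7r, had 10.34, 10.63 and 10.80 against 9.85, 9.86 and 9.95 and fell by 0.70 (SE 0.08, adjusted p = 0.0222), although another of its probe sets showed 0.35. Neither gene's groups overlapped. Btg2, an antiproliferative gene, fell by 0.60, Ccr7, the receptor for entry to lymph nodes, by 0.56, Il7r, the survival receptor of resting T cells, by 0.49 and Bach2, a repressor of effector genes, by 0.47. S1pr1, the receptor for exit from lymph nodes, was not called at -0.40 (adjusted p = 0.0696). Without the MLN and PLN arrays numbered 2 the list median was -0.46.

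Ccng2, a cyclin of cells that leave the cycle and a known Foxo target, was nearly constant within each number, at 11.18, 11.25 and 11.28 in number 2 and 10.13, 9.83 and 9.93 in number 3. It fell by 1.27 (SE 0.08, limma adjusted p = 0.0142), and the difference was -1.20 without the MLN and PLN arrays numbered 2 (adjusted p = 0.0732). Tsc22d3, a glucocorticoid-induced leucine zipper protein, had 9.61, 9.75 and 9.85 against 8.68, 8.45 and 8.37 and fell by 1.23. Bbc3 and Bcl2l11, which encode the death proteins Puma and Bim, fell by 1.03 and 0.56, and the chemokine receptor gene Cxcr4 by 1.19. In all of these genes the 2 groups stood clear of each other.

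**Figure D4:**
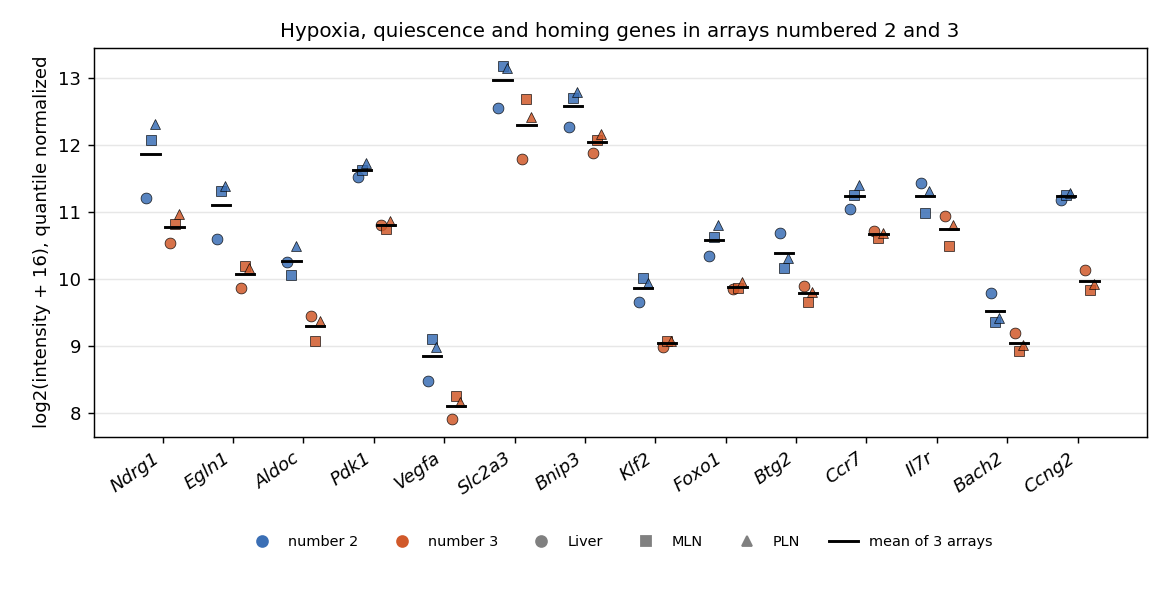
Levels (log2(intensity + 16), vertical axis) of 7 hypoxia genes, 6 quiescence and homing genes and Ccng2 in the arrays numbered 2 (blue) and 3 (orange), with symbols for the organ and a bar at the mean of 3 arrays. The 14 were chosen among the called genes, and all fell. Ccng2 and Pdk1 vary little within a number, whereas the groups of Slc2a3 overlap.

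Of the other genes with the largest falls, Selenbp1, a selenium-binding protein, had 7.33, 9.26 and 9.02 in number 2 and 6.06, 6.94 and 6.81 in number 3, and fell by 1.93 (SE 0.24, limma adjusted p = 0.0231). Cd93, a surface glycoprotein, had 7.67, 8.06 and 8.57 against 6.10, 6.58 and 7.06 and fell by 1.52 (SE 0.16, adjusted p = 0.0162). Haao, of tryptophan breakdown, fell by 1.58. Klhl24, Fam117b, Bst1, Cyp2s1 and Zfp395 fell by 1.13 to 1.29.

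Amino acid and integrated stress genes fell in part, and mostly in the organs whose number 2 arrays carried high Hspa1a. Of 32 genes 4 fell and none rose, beside 2.08% of all genes called lower, and 11 were lower in all 3 pairs, beside 21.1%. The list median was -0.27, and the medians of the liver, MLN and PLN pairs were 0.02, -0.44 and -0.45. Without the MLN and PLN arrays numbered 2 the list median was -0.10. Ddit3, which encodes the stress factor Chop, had 8.87, 9.74 and 10.06 in number 2 and 8.20, 8.11 and 8.30 in number 3, and fell by 1.36 (SE 0.21, limma adjusted p = 0.0331), with a difference of -0.91 without those arrays (adjusted p = 0.224). Trib3, a pseudokinase induced by Chop, had 9.39, 11.02 and 11.19 against 9.57, 9.22 and 9.31, so that the liver pair did not share the direction, and it was not called (adjusted p = 0.167). Ddit4, an inhibitor of the growth kinase mTOR, fell by 0.91, Cebpg, a partner of Atf4, by 0.51 and Phgdh, of serine synthesis, by 0.27; the amino acid stress factor Atf4 (-0.29, adjusted p = 0.349) and Asns, asparagine synthetase (-0.47, adjusted p = 0.129), were not called.

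Pck2, the mitochondrial enzyme that makes phosphoenolpyruvate and an Atf4 target, had 9.56, 9.75 and 10.23 against 9.07, 8.22 and 8.87 and fell by 1.12 (SE 0.20, limma adjusted p = 0.0411). Its promoter is shown because it holds the amino acid response motif TGATGNAA, which Atf4 with a C/EBP partner binds, and that of Hspa1a because it holds the paired heat shock motif GAANNTTC, searched together with TTCNNGAA. Both are RefSeq sequences of GRCm38.p6, 250 bases before the start on the gene's strand with matches on either strand in capitals, at chr14:55540016-55540265, plus strand, and chr17:34972157-34972406, minus strand.
Pck2: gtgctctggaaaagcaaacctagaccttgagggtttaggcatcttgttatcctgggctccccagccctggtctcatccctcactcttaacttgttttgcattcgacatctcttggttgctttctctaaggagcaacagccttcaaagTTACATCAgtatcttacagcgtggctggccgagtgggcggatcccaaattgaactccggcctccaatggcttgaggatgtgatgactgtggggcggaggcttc
Hspa1a: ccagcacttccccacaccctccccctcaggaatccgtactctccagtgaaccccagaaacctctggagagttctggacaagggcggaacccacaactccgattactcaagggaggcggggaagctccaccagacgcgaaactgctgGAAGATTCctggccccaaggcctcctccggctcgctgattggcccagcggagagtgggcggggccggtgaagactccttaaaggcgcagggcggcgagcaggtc
Each holds 1 match, beginning 103 bases before the start in Pck2 and 104 in Hspa1a. The amino acid motif was present in 8 of 27 promoters of the integrated stress list, or 29.6%, and in 2.39% of all measured genes with a promoter, but in none of the 4 genes of that list that fell; the heat shock motif was present in 6 of 14 promoters of the heat shock list, or 42.9%, and in 1084 of all 9887, but in none of Ahsa1, Hspd1 and Stip1, the genes of that list that were called.

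The cytosolic heat shock list as a whole did not follow Hspa1a. Of 16 genes 3 were called higher, Hspd1, a mitochondrial chaperonin, by 0.26, and the Hsp90 cochaperone genes Stip1 and Ahsa1 by 0.34 and 0.42. None was called lower, although Hspa1a, itself on the list, stood at -2.71. In all 3 pairs 10 genes were higher and 5 lower, beside 20.7% and 21.1% of all genes. The list median was 0.18, and 0.24 without the MLN and PLN arrays numbered 2. Dnajb1, an Hsp70 partner, was at -0.24 (limma adjusted p = 0.166) and Hsph1, an Hsp70 exchange factor, at 0.38 (0.129). The metallothionein gene Mt2, which responds to metals and stress, had 12.18, 12.77 and 12.97 against 11.77, 11.93 and 11.74 and fell by 0.83 (SE 0.14, adjusted p = 0.0395), whereas Mt1 was not called at -0.74 (0.176), and its liver array numbered 2 lay below that numbered 3.

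**Figure D5:**
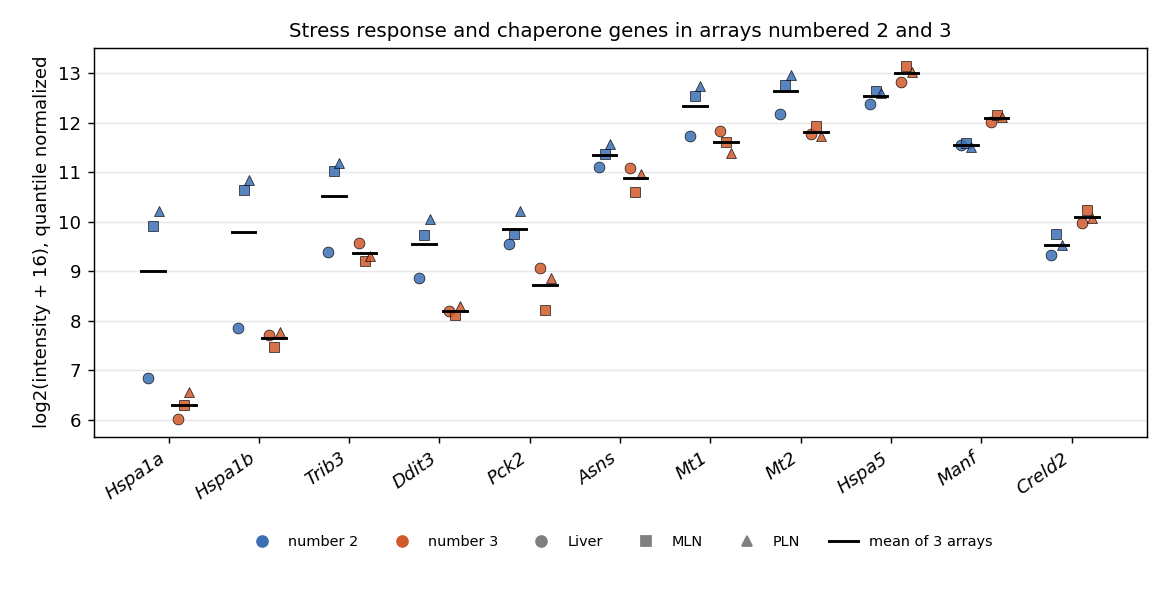
Levels (log2(intensity + 16), vertical axis) of 11 stress and chaperone genes in the arrays numbered 2 (blue) and 3 (orange), with symbols for the organ and a bar at the mean of 3 arrays. Hspa1a, Hspa1b and Trib3 are high in the MLN and PLN arrays numbered 2 and not in the liver array, whereas Hspa5, Manf and Creld2 are higher in every array numbered 3.

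The remaining lists had few calls, in most of them in both directions, beside 2.21% higher and 2.08% lower over all genes. Of 31 interferon response genes Iigp1, an interferon-induced GTPase, rose by 0.40 and Socs1 rose too (median 0.14). Among 24 genes of the TNF and TNF receptor families Cd40 alone was called (median 0.21). In all 3 pairs 13 of the 31 were higher and 3 lower, and 11 of the 24 were higher and 2 lower. The shares over all genes were 20.7% and 21.1%. Among 27 immediate early and NF-kB target genes, the phosphatase gene Dusp1 and the adhesion gene Icam1 rose by 0.57 and 0.61 and Ier3, an early response gene, fell by 0.79 (median 0.18). Of those 27, 13 were higher and 5 lower in all 3 pairs. Of 18 p53 targets Ccng1 and Ei24 rose by 0.35 and 0.37 and Bbc3 and Btg2 fell (median 0.03).

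In the TGF-beta list, Tgfb1, the ligand, had 11.23, 11.15 and 11.01 in number 2 and 11.62, 11.60 and 11.67 in number 3 and rose by 0.50 (SE 0.07, limma adjusted p = 0.0267). Tgfbr2, a receptor chain for it, had 11.24, 10.90 and 11.04 against 10.60, 10.55 and 10.47 and fell by 0.52 (SE 0.07, adjusted p = 0.0272), though another of its probe sets showed 0.17. Ligand and receptor transcripts thus moved in opposite directions, with no overlap in either gene, and the other 17 genes of the list were not called (median -0.02). Foxp3, the factor of regulatory T cells, was dim, at 6.95, 7.09 and 7.12 against 7.56, 7.28 and 7.50; its groups did not overlap, but it was not called (0.39, adjusted p = 0.277).

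Of the selectin ligand enzymes, Gcnt1, which branches the glycan core, rose by 0.86 and B4galt1, a galactosyltransferase, fell by 0.49 among 12 genes (median 0.10). Of 10 natural killer cell markers the adaptor gene Tyrobp rose by 0.62 and the receptor gene Klrk1, which activated CD8+ T cells also express, fell by 0.48. Among 32 respiratory chain genes Ndufv1, of complex I, fell by 0.29 (median -0.06), and among 20 S100, annexin and galectin genes Ahnak, a scaffold protein, fell by 0.50 (median 0.00). Of the 32 respiratory chain genes 17 were lower and 3 higher in all 3 pairs, beside 21.1% and 20.7% of all genes.

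Lmna, Fut7 and Hic1, whose levels differed between organs on these arrays, were not called between the numbers. Differences between organs were not tested here. Lmna, which encodes A-type lamins, had 9.69, 7.38 and 9.03 in number 2 and 9.87, 7.03 and 9.28 in number 3. It was lowest in MLN both times (difference 0.02, limma adjusted p = 0.954), whereas its other probe sets, all dimmer, showed 0.22, 0.38 and 0.63. Fut7, a fucosyltransferase of selectin ligands, had 8.22, 6.13 and 7.55 against 8.25, 6.80 and 7.59 (0.25, adjusted p = 0.551), and Hic1, a transcriptional repressor, had 8.26, 9.98 and 9.08 against 8.28, 9.92 and 9.13 (adjusted p = 0.998). The order of the organs was the same in both numbers for all 3 genes. These genes were chosen with earlier results of these data known, so the shared order is no independent check. The median difference of all genes was -0.002, and the pair differences had SDs over genes of 0.46, 0.47 and 0.48 in that order of organs.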

How the data were processed

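Gene expression was measured on 11 arrays, of which the 6 numbered 2 and 3 for liver, MLN and PLN were compared. The deposited values are linear intensities, one for each probe set on each array, which the authors had scaled to a common trimmed mean, as read from the values; software and probe summary are not given in the sources that were used. Of 22690 probe sets, 64 controls were left out. Only the 20380 probe sets with a single gene symbol in the platform annotation were named; 691 carried several and 1555 had none. Symbols of 20351 were updated to those of GRCm38.p6.

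Intensities were transformed as log2(intensity + 16) and then quantile normalized over all 11 arrays. The probe set with the highest mean stood for each of 12393 genes, 4956 of which had several. Number and organ entered a linear model (limma 3.58.1, R 4.3.3; 2 residual degrees of freedom), in which eBayes used a variance trend and p-values were adjusted by Benjamini-Hochberg at 0.05. For single values, 3 pairs allow no two-sided sign-flip p below 0.25. The number of arrays limits the precision. Scaling, pseudocount, probe set rule, block, variance model and arrays were varied.

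Named genes are the 15 called genes with the largest difference in each direction in the upper 60% by level, up to 4 of smallest p in each of 46 lists (32 of genes and 14 of cell markers) or more where over 4 were called, and a set of lineage, cytokine and stress genes. Cd3d, Cd74, H2-Aa, Itgax, Il5, Tbx21, Gata3, Myc, Ldha, Pgk1, Hk2, S1pr1, Atf4, Dnajb1 and Hsph1 were added, where the rule did not hold them, after their values were seen. Members and lists were chosen with earlier results of these data known.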

Additional observations from a re-analysis of the deposited data

Results flagged for a closer look

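The genes H1f4 and Mcpt1 had 1 organ pair that moved opposite to the other pairs by at least 0.5 each; the difference between pairs was not tested, with 1 pair per organ. H1f4, a linker histone gene, had a difference of -1.5 in the MLN pair, against 0.67 in liver and 0.71 in PLN. Mcpt1, a mast cell protease gene, had 0.61 in the liver pair, against -0.57 in MLN and -1.03 in PLN. Both were dim, below the upper 60% of genes by level, and neither was called (limma adjusted p = 0.978 and 0.664).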

How the results depend on the processing

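The count of 532 called genes was 501 to 557 with intensities as deposited, after median centring, with normalization over the 6 arrays or with robust eBayes, 607 and 372 with pseudocounts of 1 and 64, and 404 with the mean of a gene's probe sets. Without the replicate block, that is with the organ left out of the pairing, it was 392, of which 339 were among the 532. It was 1013 when only the upper 60% of genes were tested (413 there with no variance trend, a setting chosen after seeing the data) and 1007 with all 11 arrays. It was 0 with no variance trend over all genes (2065 at an unadjusted p under 0.05) and 0 without MLN and PLN replicate 2 (1578), also chosen after seeing the data. Leaving out 1 pair gave 2 to 674 genes. All 121 called genes among the 223 named kept their direction in every setting that tested them (Il9 was not in the upper 60%). With 1 pair left out this was fixed beforehand, as all 3 pairs of each called gene moved the same way. Without MLN and PLN replicate 2 the number 2 side was the liver array alone, so the direction leaned on the liver pair. Il13 then had 3.65 against 3.40 in the liver pair, and Ccng2 -1.20 against -1.05. That setting is therefore little further check of direction. The variance settings do not change the difference. Of the 121, 119 were no longer called without the MLN pair, 101 without the PLN pair and 11 without the liver pair. With no variance trend over all genes none of the 121 was called. Among other probe sets of these genes 81 of 84 pointed the same way, Cd80 (-0.41), Foxo1 (0.35) and Tgfbr2 (0.17) having the exceptions. Sign changes came in genes that were not called. As deposited and after median centring these were Actb (-0.12, -0.11), B2m (-0.08 in both) and Gzmb (-0.14 in both); with the mean of probe sets Actb (-0.06) and Ccr2 (0.01); with a pseudocount of 1 H1f4 (0.01); with all 11 arrays Hic1 (0.05). Without MLN and PLN replicate 2 they were Alb (0.59), Bcl2l1 (-0.03), Ctss (-0.10), Gp5 (-0.11), Hic1 (0.26), Jchain (-0.55), Kdm5d (-0.17), Lmna (-0.02), Mcpt1 (0.33), Pf4 (0.18) and Rarg (0.22). With 1 pair left out, the differences ranged from -0.83 to 0.06 for Alb, -0.20 to 0.16 for Cd3e, -0.15 to 0.08 for Cd8a, -0.17 to 0.40 for Eif2s3y, -0.02 to 0.35 for Gp5, -0.02 to 0.03 for Gzmb and for Hic1, -0.42 to 0.69 for H1f4, -0.08 to 0.33 for Kdm5d, -0.09 to 0.22 for Lmna, -0.80 to 0.02 for Mcpt1 and -0.24 to 0.65 for Uty. The causes were not tested. Of the 532 calls, 519 lie in the upper 60% by level.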
